A study of Mus musculus with 8 samples.

Results

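The transcriptional programme of ATF4, the effector of the integrated stress response, was examined in mouse embryonic fibroblasts (MEFs) and livers lacking the RNA methyltransferases Dnmt2, Nsun2 or both. The members were a list of 37 genes: Atf4 itself and its targets in amino acid synthesis and transport, folate metabolism and stress signalling. All probes annotated to these genes were taken from the array. Of the 37 genes, 36 had a probe, 53 probes in all, among 16559 genes and 25608 probes measured. The proline synthesis gene Pycr1 had no probe in the platform annotation.

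Dnmt2 (gene symbol Trdmt1) and Nsun2 both methylate cytosines in transfer RNAs. Expression was measured on Illumina bead arrays in 4 genotypes, namely Dnmt2-/-, Nsun2-/-, their double knockout (DKO) and wild type, of the strain CBA/C57BL6j x B6;129. The MEFs came from embryos of day 13.5, had been immortalized with a plasmid for the SV40 large T antigen and were arrayed at passage 9. The livers were taken at 2 months of age. A single array (1 for each of 8 groups) was run, and the labels do not say how many embryos, animals or lines stood behind it. A difference between 2 arrays therefore had no replicate check, and genotype cannot be told apart from any other difference between 2 lines or 2 livers. In such bulk samples fewer expressing cells and less RNA per cell cannot be told apart either.

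ATF4 messenger RNA is translated more efficiently when the initiation factor eIF2 is phosphorylated by kinases that sense amino acid shortage, misfolded protein or other stress. The protein binds, with partners of the C/EBP family, to composite C/EBP-ATF elements, and raises transcription of genes that make and import amino acids, load transfer RNAs and restore translation. Because ATF4 is controlled mainly at translation, the level of Atf4 messenger RNA need not follow the activity of the protein, which was not measured here.

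The composite element was searched for as TGATGNAA on both strands of RefSeq promoter windows of GRCm38.p6, which run from 250 bases before to 50 bases after each gene's start. A window was found for 32 of the 37 genes, and 11 of these (34.4%) held the motif, against 4.51% of 27025 genes. Aldh1l2, Cth, Eif4ebp1, Slc7a3 and Slc7a5 had no window. The list was drawn up from known targets, so the share describes the list and says nothing of binding in these samples. Upstream stretches are given for 3 of these genes. Asns (asparagine synthetase) and Chac1 (a glutathione-degrading enzyme) were highest in wild-type MEFs, and Atf3, a stress-induced transcription factor, lay near background on the MEF arrays. Each is printed in the gene's own direction with the motif in capitals.
Asns, chr6:7693210-7693258, minus strand: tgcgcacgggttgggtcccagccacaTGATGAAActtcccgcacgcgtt
Chac1, chr2:119351023-119351082, plus strand: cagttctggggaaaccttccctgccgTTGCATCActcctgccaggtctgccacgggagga
Atf3, chr1:191183410-191183469, minus strand: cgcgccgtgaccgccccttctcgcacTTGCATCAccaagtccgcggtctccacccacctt
The Asns match lies at bases −23 to −16 from the start, on the gene's strand. The Chac1 match, at −193 to −186, and the Atf3 match, at −110 to −103, lie on the opposite strand and so read TTGCATCA. Among members detected in MEFs, wild type was the highest of the 4 arrays for 7 of 9 genes with the motif, 12 of 20 without it and 4 of 5 with no window.

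Values below are log2 signals after background correction and quantile normalization over the 8 arrays. A gene was taken as detected at a detection p-value under 0.01, and the lowest detected signals were 4.39 to 4.40 for MEFs and 4.48 to 4.53 for livers. Detected probes numbered 13019 to 13409 per MEF array and 11585 to 11688 per liver array. Correlations of log2 intensity between MEF arrays ran from 0.978 to 0.989, with the DKO at 0.978 to 0.979 to the others, and those between livers from 0.990 to 0.993. The Nsun2 probe was detected in wild-type MEFs (5.36), Dnmt2-/- MEFs (5.14) and wild-type liver (5.35), and on no Nsun2-/- or DKO array. It was also not detected in the liver labelled Dnmt2-/- (4.41), close to background, so that label could not be checked and each liver comparison with it carries this limit. The Trdmt1 probe (Dnmt2) went against the labels: it was not detected in wild-type MEFs (4.51) but was in the MEFs labelled Dnmt2-/- (5.09) and DKO (4.64), and it was detected in no liver, with 4.87 in the liver labelled Dnmt2-/- and 4.31 in wild type. It lay near background throughout, and where the probe lies relative to the deleted part was not examined, so loss of Dnmt2 was not checked on any array. Dnmt2-/- and DKO below mean the arrays so labelled. Signal for Eif2s3y, which is Y-linked, was 7.85 (wild type) and 6.78 (Dnmt2-/-) in MEFs and not detected in Nsun2-/- or DKO MEFs, and it was 8.76 to 8.93 in the 4 livers. Kdm5d and Xist split the MEF lines in the same way. Kdm5d read 5.95 in wild type and 5.70 in Dnmt2-/-, against 4.29 and 4.25, below detection, in Nsun2-/- and DKO. Xist read 5.90 in Nsun2-/- and 6.07 in DKO, against 4.58 in Dnmt2-/- and 4.47, below detection, in wild type. The split follows the Nsun2 label, so in MEFs an effect of Nsun2 loss cannot be told apart from it. These genes also differed between livers. Y-linked Kdm5d was not detected in Nsun2-/- liver (4.40) and was 5.27 to 6.05 in the other 3. Xist was not detected in wild-type liver and was 5.48 in the liver labelled Dnmt2-/-, 5.21 in Nsun2-/- and 4.85 in DKO liver. The summed signal of 10 fibroblast markers was 15929 in wild-type, 26388 in Dnmt2-/-, 20194 in Nsun2-/- and 8527 in DKO MEFs, with 9, 9, 9 and 8 of them detected. Their median log2 signals were 9.64, 10.41, 9.47 and 8.55, so Nsun2-/- lay above wild type by the sum and below it by the median. The markers did not move together in the DKO: Thy1 gave 7.22 against 11.59 in wild type, and Prrx1 9.96 against 9.07. Hepatocyte markers summed to 208 to 212 in MEFs and to 75203 to 81099 in livers. Whether sex-linked expression had a part in the MEF or liver differences, or the fibroblast marker level in the MEF differences, was not tested.

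Of the 36 members with a probe, 34 were detected on at least 1 MEF array and 27 on at least 1 liver array. The phosphoserine phosphatase Psph and the mitochondrial phosphoenolpyruvate carboxykinase Pck2 were detected on none, and 18 members were detected on all 8 arrays.

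In MEFs most of the ATF4 genes were lower in the knockout lines than in wild type. This list was chosen with earlier results of these data known, so its contrast with all genes describes the list and is no independent support. In Dnmt2-/- MEFs 25 of 33 members compared were lower, where 5255 of 9742 genes were. Of these members 9 were at least 2-fold lower, against 0.893% of all genes. In Nsun2-/- MEFs 26 of 33 were lower, where 5323 of 9677 genes were, and 9 were at least 2-fold lower, against 0.682%. In DKO MEFs 27 of 34 were lower, where 5105 of 9683 genes were, and 8 were at least 2-fold lower, against 2.82%. The median log2 differences of the members were −0.58, −0.59 and −0.66 in that order, beside −0.04, −0.04 and −0.03 over all genes. Only Stc2 was at least 2-fold higher in any knockout MEF, where 2.73%, 1.94% and 4% of all genes were, and Stc2 was not without background correction or on the authors' values (log2 differences of 0.75 and 0.73). Under those same settings Gpt2, Mthfd2 and Slc1a4 were less than 2-fold lower in both single knockouts, as were Atf5 in Dnmt2-/- and Slc6a9 in Nsun2-/- MEFs, and Trib3 in the DKO. The 3 comparisons share the wild-type array, so that any peculiarity of that array enters all of them. Wild type was the highest of the 4 MEF arrays for 23 of 34 members, against 27.9% of 10426 genes, and the lowest for 3 (Ppp1r15a and, near background, Atf3 and Cebpg), against 20.8%.

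**Figure D1:**
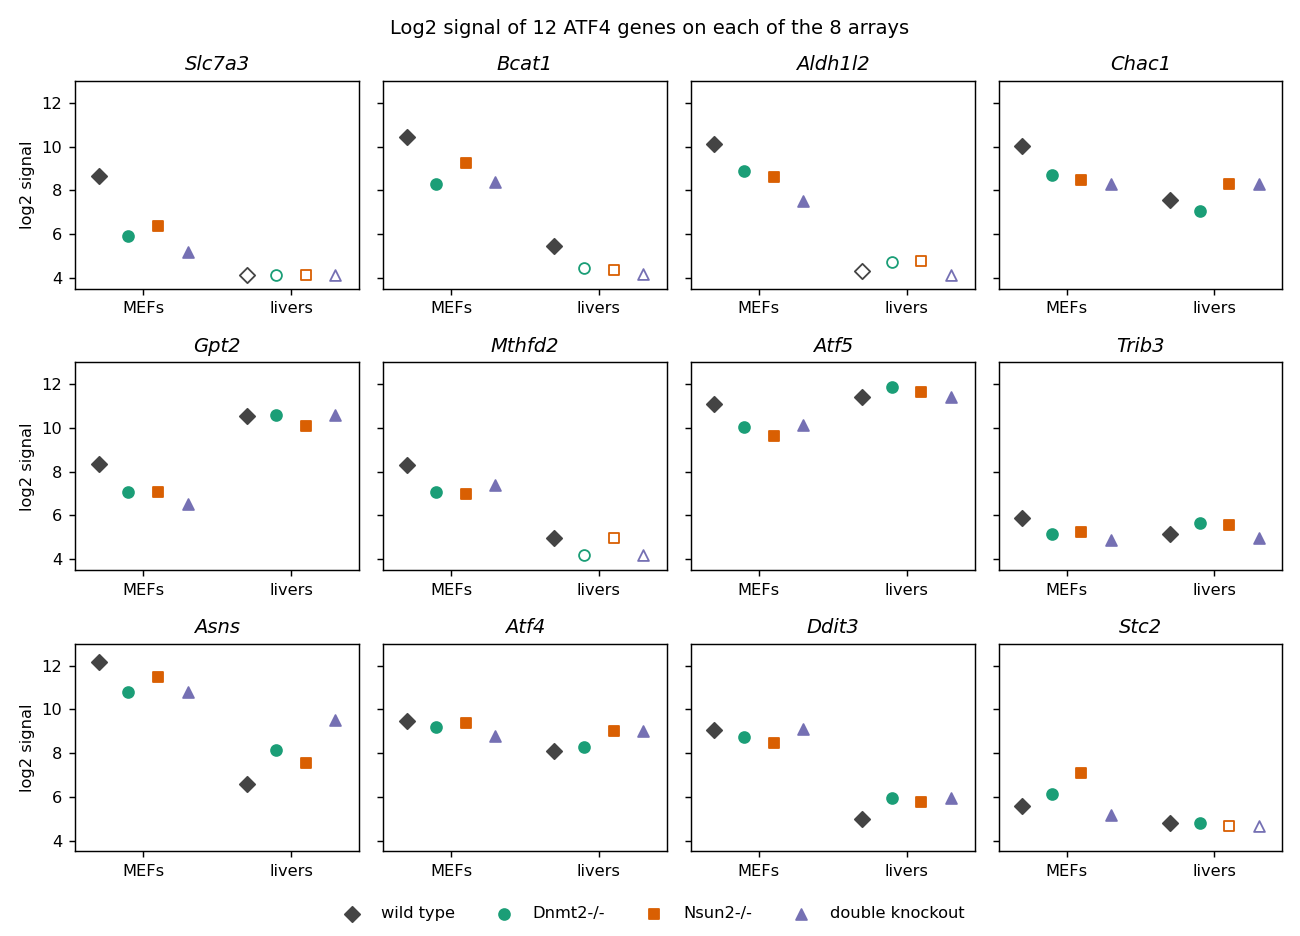
Log2 signal (vertical axis) of 12 ATF4 genes on each of the 8 arrays, 1 point per array; diamonds are wild type, circles Dnmt2-/-, squares Nsun2-/- and triangles double knockout, and open symbols mark probes not detected. Wild-type MEFs stand above the 3 knockout MEFs for Slc7a3, Bcat1, Aldh1l2, Chac1, Gpt2, Mthfd2, Atf5, Trib3, Asns and Atf4, and wild-type liver is the lowest liver for Asns, Atf4, Atf5 and Ddit3.

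Among the genes of amino acid synthesis, the MEF medians were −0.90 in Dnmt2-/-, −0.70 in Nsun2-/- and −1.14 in DKO, over 7 genes. Bcat1, the cytosolic branched-chain aminotransferase, had signals of 10.43 in wild-type, 8.28 in Dnmt2-/-, 9.27 in Nsun2-/- and 8.38 in DKO MEFs. Wild type was thus the highest and the Nsun2-/- line intermediate, with 4.44-, 2.23- and 4.16-fold lower signal in Dnmt2-/-, Nsun2-/- and DKO MEFs. Bcat1's other 2 probes lay near background, detected on 1 and 2 of the 8 arrays, and with all 3 averaged its log2 differences were −0.91, −0.60 and −1.04.

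Asns, which makes asparagine, gave 12.17 in wild-type, 10.77 in Dnmt2-/-, 11.48 in Nsun2-/- and 10.80 in DKO MEFs. It was 2.64-, 1.62- and 2.60-fold lower in the 3 knockout lines, least so in Nsun2-/-. Its 3 probes all read lower in each knockout line, with log2 differences of −1.61 to −0.97 in Dnmt2-/-, −1.07 to −0.34 in Nsun2-/- and −1.38 to −0.67 in DKO.

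Gpt2, the mitochondrial alanine aminotransferase, gave 8.34, 7.07, 7.09 and 6.55 in wild-type, Dnmt2-/-, Nsun2-/- and DKO MEFs. It was 2.41- and 2.38-fold lower in the single knockouts and 3.47-fold lower in the DKO. Aldh18a1, which starts proline synthesis from glutamate, gave 9.73, 8.87, 8.79 and 8.59 in the same order and passed 2-fold only in the DKO (2.20-fold). The serine synthesis genes differed less: Psat1 gave 11.42, 10.52, 10.78 and 10.75, and Phgdh gave 8.19, 7.60, 7.64 and 8.04. Both were highest in wild type, with no difference of 2-fold. Cth, which makes cysteine, stayed between 4.68 and 5.09, close to background.

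Amino acid transporters had medians of −0.87 in Dnmt2-/-, −0.87 in Nsun2-/- and −0.54 in DKO MEFs. Slc7a3, a transporter of arginine, lysine and ornithine encoded on the X chromosome, gave 8.66 in wild-type, 5.93 in Dnmt2-/-, 6.36 in Nsun2-/- and 5.18 in DKO MEFs. Its differences, 6.65-, 4.92- and 11.1-fold, were the largest of any member in each line at these settings. Their size moved with the processing, from −3.77 to −1.52 on the log2 scale in the DKO, where Aldh1l2 ran from −2.63 to −2.18 and was the lower of the pair without background correction (−2.18 against −2.06). A second Slc7a3 probe was detected on no array and gave no check, and averaging it with the first gave the smallest differences.

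The related cationic transporter Slc7a1 was detected on the DKO MEF array alone (4.89). Slc1a4, a carrier of small neutral amino acids, gave 7.62, 6.59, 6.40 and 7.36 in wild-type, Dnmt2-/-, Nsun2-/- and DKO MEFs. It was 2.04- and 2.32-fold lower in the single knockouts and 1.19-fold lower in the DKO. The glycine transporter Slc6a9 gave 9.45, 8.58, 8.40 and 8.63, and was 2.07-fold lower in Nsun2-/- MEFs. Slc7a5, which carries large neutral amino acids in a complex with Slc3a2, gave 11.09, 10.18, 10.27 and 10.19, below 2-fold in every line. Slc3a2 gave 5.86, 5.57, 5.41 and 5.49. Slc7a11, the cystine importer that also pairs with Slc3a2, was 5.26 in wild type and at or near background in Nsun2-/- (4.38, not detected) and DKO MEFs (4.56). The sodium-coupled transporter Slc38a2 showed no common direction: its brightest probe was 0.20 higher on the log2 scale in DKO MEFs, and a second probe was 0.73 lower.

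The mitochondrial folate enzymes had the lowest medians in the single knockouts, −1.22 in Dnmt2-/- and −1.30 in Nsun2-/- MEFs, and −0.91 in the DKO, over 3 genes. Aldh1l2, which oxidizes formyl-tetrahydrofolate, gave 10.13 in wild-type, 8.91 in Dnmt2-/-, 8.61 in Nsun2-/- and 7.50 in DKO MEFs. The differences of 2.33-, 2.87- and 6.19-fold place the DKO below both single knockouts, and a second probe gave log2 differences of −1.25, −1.30 and −2.42. Mthfd2, the mitochondrial methylenetetrahydrofolate dehydrogenase, gave 8.29, 7.06, 7.0 and 7.38. It was 2.36- and 2.45-fold lower in the single knockouts and 1.88-fold in the DKO. Shmt2, the mitochondrial serine hydroxymethyltransferase, gave 8.27, 7.60, 7.67 and 7.68, lower by less than 2-fold, though a second probe differed by only −0.09 in Nsun2-/- MEFs.

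**Figure D2:**
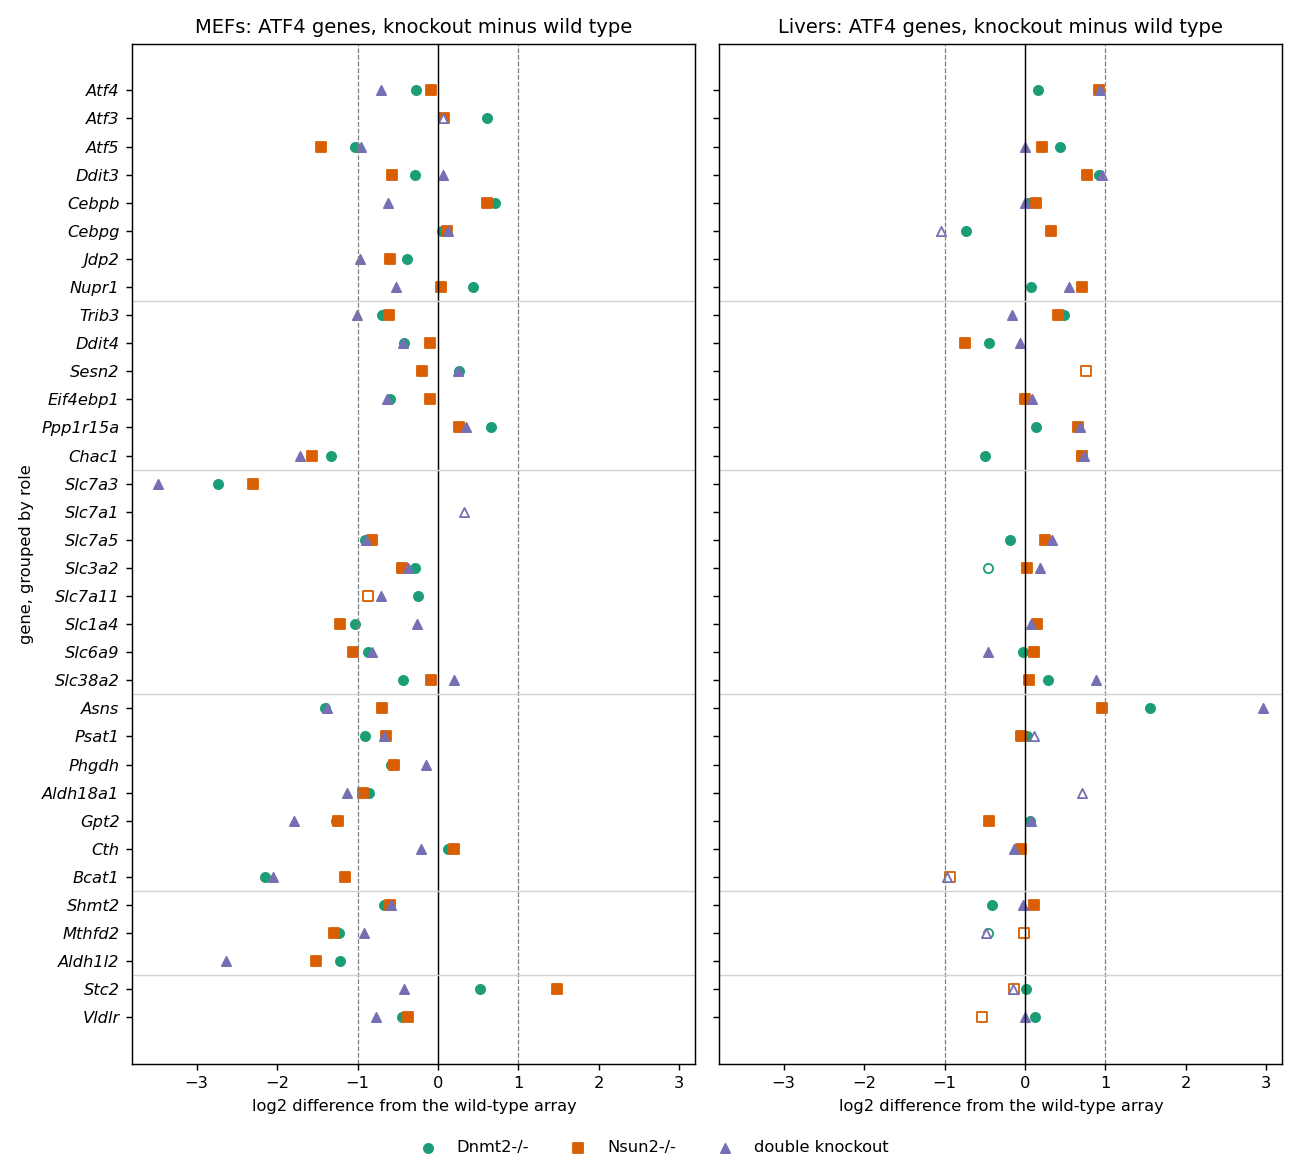
Log2 difference of each knockout array from the wild-type array of the same sample type (horizontal axis) for the 34 ATF4 genes detected on at least 1 array, grouped by role, in MEFs (left) and livers (right); dashed lines mark 2-fold, and open symbols are bounds where 1 of the 2 arrays did not detect the gene. Slc7a3 reaches −3.48 in DKO MEFs and Asns reaches 2.96 in DKO liver.

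The signalling and stress genes were less uniform, with MEF medians of −0.51, −0.15 and −0.54 in Dnmt2-/-, Nsun2-/- and DKO. Chac1 gave 10.03, 8.70, 8.47 and 8.31 in wild-type, Dnmt2-/-, Nsun2-/- and DKO MEFs. It was 2.51-, 2.95- and 3.28-fold lower in the knockouts, which lay close together. Trib3, a pseudokinase that restrains ATF4 and CHOP, gave 5.87, 5.17, 5.26 and 4.86, and was 2.01-fold lower in the DKO.

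The other stress genes did not reach 2-fold. Ddit4 and Sesn2, both inhibitors of mTORC1 signalling, were within 0.44 of wild type. Eif4ebp1, which holds back the cap-binding factor eIF4E, gave 12.11, 11.51, 12.01 and 11.47. Ppp1r15a, the phosphatase subunit that reverses eIF2 phosphorylation, ran the other way: it gave 7.40 in wild type and 8.07, 7.66 and 7.75 in Dnmt2-/-, Nsun2-/- and DKO MEFs.

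The transcription factors had MEF medians of −0.11, −0.02 and −0.57. Atf4 itself gave 9.48, 9.21, 9.39 and 8.77 in wild-type, Dnmt2-/-, Nsun2-/- and DKO MEFs, so its messenger RNA was close to wild type in both single knockouts and lower in the DKO. Atf5, a related factor also controlled by translation, gave 11.08, 10.05, 9.62 and 10.13, and was 2.04-, 2.75- and 1.94-fold lower. Ddit3, which encodes CHOP, gave 9.04, 8.75, 8.47 and 9.10, with the DKO at the wild-type level.

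Cebpb, a partner in the composite element, gave 12.05, 12.75, 12.65 and 11.42, higher than wild type in the single knockouts and lower in the DKO. Jdp2, a repressor of AP-1, gave 8.17, 7.79, 7.58 and 7.21, with no 2-fold difference. Nupr1, a stress-induced chromatin protein, gave 9.49, 9.92, 9.53 and 8.97. Atf3 lay near background at 4.49 to 5.10, as did Cebpg at 4.76, 4.81, 4.88 and 4.89. Of the members outside these roles, the secreted glycoprotein gene Stc2 gave 5.59, 6.12, 7.07 and 5.17, 1.48 higher on the log2 scale in Nsun2-/- MEFs. The lipoprotein receptor gene Vldlr gave 8.51, 8.06, 8.14 and 7.73, and all 3 of its detected probes were lower in the 3 knockout lines.

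The DKO line was next set against each single knockout. With 1 array per line, an added effect of the second loss cannot be told apart from another difference between lines. Relative to Dnmt2-/- MEFs the median of 34 members was −0.06, and 2 genes were at least 2-fold lower, Aldh1l2 (−1.41) and Cebpb (−1.33), where 3.68% of 9835 genes were. Relative to Nsun2-/- MEFs the median was −0.11, and 4 were at least 2-fold lower, Stc2 (−1.90), Cebpb (−1.23), Slc7a3 (−1.18) and Aldh1l2 (−1.11), where 3.3% of 9731 genes were. No member was 2-fold higher in either comparison, where 2.61% and 3.32% of genes were. The median of the list thus differed far less between DKO and single knockouts than between each of them and wild type, while Aldh1l2 was lowest in the DKO.

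**Figure D3:**
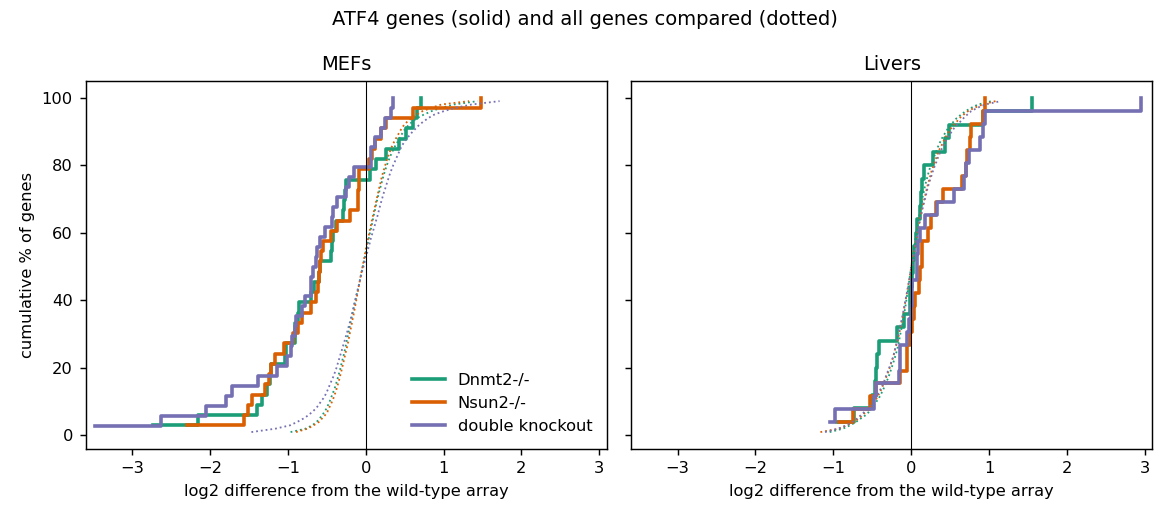
Cumulative percentage of genes (vertical axis) against the log2 difference from the wild-type array (horizontal axis) in MEFs (left) and livers (right); solid steps are the ATF4 genes and dotted lines all genes compared, with not detected values entered as bounds. In MEFs the 3 solid lines cross 50% at −0.58, −0.59 and −0.66 and the dotted ones near 0, and in livers the medians are 0.02, 0.12 and 0.08.

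The 8 arrays form a factorial layout, in which the effects of Dnmt2 loss and Nsun2 loss were fitted with limma and p-values adjusted by the Benjamini-Hochberg method over 10491 genes, 33 of them members. No gene of any kind, and so 0% of members and of all genes, passed an adjusted p of 0.05 for any genotype effect, over both sample types or within either. Within MEFs, 6 members had an unadjusted p under 0.05 for Dnmt2 loss, all lower, where 677 genes (6.45%) had one. They were Slc7a3 (effect −1.96, SE 0.38, limma adjusted p = 0.468), Bcat1 (−1.52), Aldh1l2 (−1.17), Asns (−1.04), Gpt2 (−0.91) and Eif4ebp1 (−0.57). For Nsun2 loss in MEFs there were 5, all lower, beside 515 genes (4.91%): Slc7a3 (−1.52, SE 0.38), Aldh1l2 (−1.46, SE 0.29), Chac1 (−0.97), Gpt2 (−0.89) and Slc7a11 (−0.67), with limma adjusted p of 0.985 to 0.996. Over both sample types 2 members had an unadjusted p under 0.05 for Dnmt2 loss, Bcat1 (−1.05, SE 0.28) and Mthfd2 (−0.60, SE 0.25), both with a limma adjusted p of 0.977, and 419 genes (3.99%) had one. For Nsun2 loss it was 0 members and 442 genes (4.21%). The error in these fits is the departure of the arrays from additive effects, with 4 residual degrees of freedom over both sample types and 2 within them, and not a spread between replicates.

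In liver the list as a whole lay near wild type, and Asns stood apart. Members at least 2-fold higher numbered 1 of 25 in the liver labelled Dnmt2-/- (1.1% of 8943 genes), 0 of 26 in Nsun2-/- (1.41% of 8949) and 1 of 26 in DKO liver (1.6% of 8955). Only Cebpg in the DKO was 2-fold lower, where 1.26%, 1.49% and 1.51% of genes were, and it was so under 2 of 7 other settings (log2 differences −1.09 to −0.29). Those 2, the mean over probes and no detection filter, leave the signal of this gene unchanged, as it has 1 probe. The medians were 0.02, 0.12 and 0.08. Asns gave 6.57 in wild-type liver, 8.12 in the liver labelled Dnmt2-/-, 7.53 in Nsun2-/- and 9.53 in DKO, all 3 above wild type and the DKO highest. The differences were 2.93-, 1.94- and 7.76-fold, in the opposite direction to the MEFs, and with its 3 probes averaged the log2 difference in Nsun2-/- was 0.40. A second Asns probe, not detected in wild-type liver, gave log2 differences of 1.47, 0.25 and 2.75, and the third was detected in DKO liver alone.

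Atf4 gave 8.10, 8.26, 9.02 and 9.03 in wild-type liver, the liver labelled Dnmt2-/-, Nsun2-/- and DKO liver. It was 1.90-fold higher in the Nsun2-/- and DKO livers and 1.12-fold in the liver labelled Dnmt2-/-. The Nsun2 probe was detected in wild-type liver and in no knockout liver, so this grouping of the knockout livers rests on the labels. Ppp1r15a gave 6.39, 6.53, 7.05 and 7.07, and Chac1 7.58, 7.07, 8.28 and 8.31, both with the Nsun2-/- and DKO livers above the other 2. Ddit3 gave 5.0, 5.92, 5.76 and 5.95, but its second detected probe differed by only 0.06, −0.07 and 0.19. The transcription factors had medians of 0.12, 0.52 and 0.28, and 6 of 6 were higher in Nsun2-/- liver, where 4500 of 8949 genes were.

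Other members did not share this pattern. Atf5 gave 11.42, 11.86, 11.64 and 11.43, with the DKO at the wild-type level. Trib3 gave 5.15, 5.64, 5.55 and 4.99, and Gpt2 10.53, 10.60, 10.08 and 10.61. Slc38a2 gave 9.59, 9.88, 9.64 and 10.47, highest in the DKO. Cebpg gave 5.53, 4.79, 5.85 and 4.43 (not detected), so it was at least 2.06-fold lower in the DKO. Bcat1 was detected in wild-type liver alone, at 5.46, with 4.47, 4.37 and 4.18 in the others. Mthfd2 was also detected there alone, at 4.96, with 4.21, 4.95 and 4.18 in the others. Aldh18a1 was detected in DKO liver alone (4.31, 4.32, 4.70 and 5.20). Slc7a3 (4.12 to 4.15) and Aldh1l2 (4.12 to 4.79) were detected in no liver.

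Slc1a4 varied little between livers, at 5.82, 5.93, 5.96 and 5.89, and Slc6a9 gave 9.73, 9.71, 9.83 and 9.27. Stc2 lay near background, at 4.79, 4.80, 4.65 and 4.65, the last pair not detected. Wild type was the lowest of the 4 livers for 10 of 27 members, against 25.3% of 9756 genes, and the highest for 4, against 23.9%. This order counts undetected values and near ties. Among the 10, 1 knockout liver lay only 0.006 above wild type for Aldh18a1 (both not detected), and 0.005 above it for Cebpb and Atf5. DKO liver exceeded the liver labelled Dnmt2-/- at least 2-fold in Asns (1.41 on the log2 scale) and Chac1 (1.24), where 1.88% of genes did. It exceeded Nsun2-/- liver at least 2-fold in Asns alone (2.00), where 1.54% did. No member was 2-fold lower in DKO liver than in the liver labelled Dnmt2-/- (1.89% of genes were), and Cebpg was so relative to Nsun2-/- liver (1.3% of genes). The summed signal of 5 macrophage markers was 1424, 1429, 1564 and 1888 in wild-type liver, the liver labelled Dnmt2-/-, Nsun2-/- and DKO liver, and its part in these differences was not tested.

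In the limma fit within liver, 0 genes passed an adjusted p of 0.05. For Nsun2 loss 5 members had an unadjusted p under 0.05, all higher, beside 662 genes (6.31%): Asns (1.18, SE 0.25) and Atf4 (0.84, SE 0.19), each with a limma adjusted p of 0.710, Chac1 (0.97), Aldh18a1 (0.63) and Ppp1r15a (0.60). For Dnmt2 loss there were 2 beside 458 genes (4.37%), Asns (1.78, SE 0.25, limma adjusted p = 0.971) and Cebpg (−1.08).

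Whether each loss acted differently in liver and MEFs was tested in the same fit. No gene passed the adjusted threshold. The difference of the Dnmt2 effect, liver minus MEFs, was 2.82 for Asns (SE 0.36, limma adjusted p = 0.875), and 6 members and 578 genes (5.51%) had an unadjusted p under 0.05. Of these members 4 had effects higher in liver, Asns, Slc7a3 (1.96), Gpt2 (1.20) and Vldlr (0.76), and 2 lower, Cebpg (−1.11) and Sesn2 (−0.86). For the Nsun2 effect 8 members and 549 genes (5.23%) had an unadjusted p under 0.05, and all 8 effects were higher in liver. Chac1 (1.95), Slc7a3 (1.55), Asns (1.52), Aldh1l2 (1.41), Aldh18a1 (1.24), Atf4 (1.11), Nupr1 (1.05) and Slc7a11 (0.72) made up this group, with a limma adjusted p of 0.917. Slc7a3, Aldh1l2 and Slc7a11 were detected in no liver, so their difference is that of the MEFs alone.

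The sample types themselves differed strongly in these genes. With genotype as a covariate, 24 of 33 members were higher in MEFs and 5 in liver by limma at an adjusted p of 0.05, where 38.7% and 28.6% of 10491 genes were. The MEF and liver arrays did not overlap for 27 of the 33, against 62.5% of genes, so a difference of this kind was common over the whole array. With each array scaled to the same median instead, all genes shifted toward MEFs, from a median difference of 0.14 to 0.51. Their split went from 4055 higher and 3005 lower to 5430 and 2137, and 25 members were higher in MEFs and 3 in liver. Cells in culture and a tissue also differ in age, source and immortalization, which cannot be told apart here.

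Psat1, of serine synthesis, showed the widest gap of the members: it was 10.87 ± 0.39 (SD, n = 4 arrays) in MEFs and 4.89 ± 0.07 in liver, 62.9-fold higher in MEFs (limma adjusted p = 4.12e-08), and Phgdh was at least 9.29-fold higher. Bcat1 was 22.2-fold, Aldh18a1 20.6-fold and Slc7a5 19.9-fold higher in MEFs. Aldh1l2 was at least 18.0-fold higher, Slc7a3 at least 4.09-fold and Jdp2 at least 7.88-fold, none of them detected in liver. Nupr1 (15.7-fold), Asns (10.3-fold), Ddit3 (9.05-fold), Ddit4 (8.71-fold), Vldlr (7.69-fold) and Mthfd2 (7.25-fold) were also higher in MEFs. Bcat1, Aldh18a1 and Mthfd2 were each detected on only 1 of the 4 liver arrays, and Psat1 and Vldlr on 3. Their folds take the undetected liver signals as read, so those of the first group are rough. Here "at least" sets the MEF mean against the mean of, per liver array, the higher of its lowest detected signal and the probe's own.

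The genes higher in liver included enzymes of hepatic amino acid metabolism. Cth was 9.21 ± 0.06 (SD, n = 4 arrays) in liver and 4.92 ± 0.18 in MEFs, 19.5-fold higher in liver (limma adjusted p = 3.44e-08). Gpt2 was 9.13-fold higher in liver (limma adjusted p = 2.16e-05) and Atf5 2.58-fold (limma adjusted p = 0.0021). Shmt2 (2.24-fold) and Slc6a9 (1.83-fold) passed the test as well, but neither did with arrays scaled to the same median. Atf4 did not pass: it was 9.21 ± 0.32 in MEFs and 8.60 ± 0.49 in liver (SD, n = 4 arrays each, limma adjusted p = 0.0616), and the arrays overlapped. Trib3, Sesn2 and Cebpg did not pass either.

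**Figure D4:**
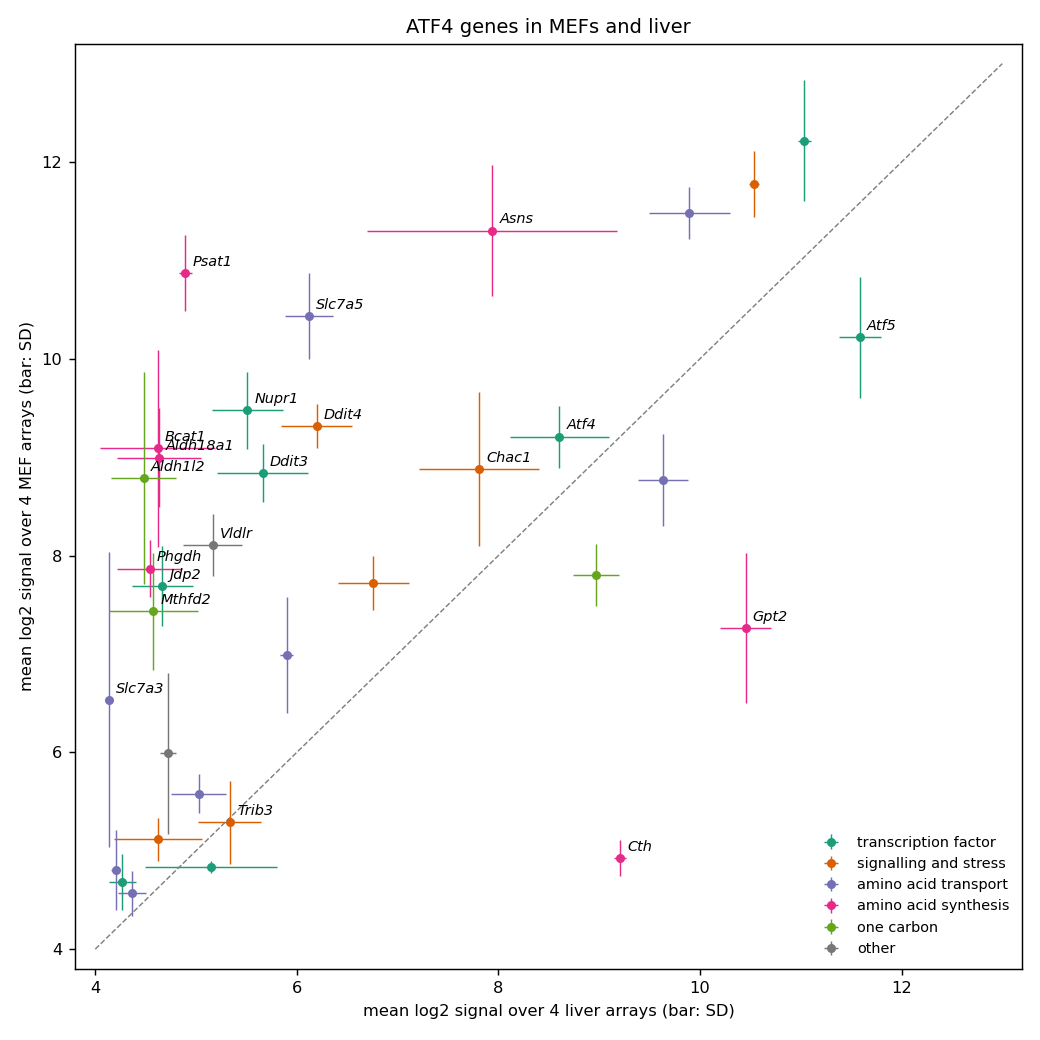
Mean log2 signal over the 4 MEF arrays (vertical axis) against the mean over the 4 liver arrays (horizontal axis) for the ATF4 genes, colored by role; bars are the SD over the 4 genotypes and the dashed line marks equal signal. Psat1 (10.87 against 4.89) lies far above the line, Cth (4.92 against 9.21) far below it, and Atf4 close to it.

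Neighbouring pathways gave a measure of how far the MEF difference extended beyond the list. Of 31 other reported ATF4 targets, 24, 23 and 23 could be compared in Dnmt2-/-, Nsun2-/- and DKO MEFs, with medians of −0.27, −0.15 and −0.26, and 0, 0 and 4 were at least 2-fold lower. Some transfer RNA synthetase genes were among the lowest of these: Lars gave 9.74, 8.84, 8.86 and 8.63 in wild-type, Dnmt2-/-, Nsun2-/- and DKO MEFs, and Sars 9.74, 8.85, 8.76 and 9.11. Wars was 1.22 lower on the log2 scale in the DKO. Eprs, another synthetase gene, stayed near wild type at 7.88, 7.88, 7.59 and 7.73. Gadd45a, a growth arrest gene, was 1.08 higher in Nsun2-/- MEFs.

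The eIF2 kinases and factors that control eIF2 had medians of −0.15, −0.11 and −0.04 over 12 genes, in which Eif2s2, a subunit of eIF2, differed by −0.78, −0.67 and −1.25. Targets of ATF6 and XBP1, the other branches of the unfolded protein response, had medians of 0.05, 0.08 and −0.23 over 15 genes, and mitochondrial chaperones −0.42, −0.06 and −0.26 over 7. Serine, glycine and folate enzymes outside the list gave −0.16, 0.22 and −0.14, and other amino acid enzymes and transporters −0.15, 0.09 and 0.19. Within the last group Slc1a3, a glutamate and aspartate carrier, was lower in the 3 lines (−1.45, −1.35 and −1.91), and Ass1, which makes argininosuccinate, was higher (1.02, 0.86 and 1.60). The listed genes thus had medians below those of every neighbouring set in each knockout line, and no test of that difference was made. The list and these sets were chosen with earlier results of these data known, so their order describes these lists and no more.

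In liver the other reported ATF4 targets had medians of −0.09, −0.05 and 0.02 over 18 genes. Fgf21, a hormone that the liver secretes in fasting and amino acid shortage, stood apart from them in the livers labelled Dnmt2-/- and Nsun2-/-. It gave 6.25 in wild-type liver, 8.55 in the liver labelled Dnmt2-/-, 8.06 in Nsun2-/- and 6.84 in DKO. All 3 knockout livers were above wild type, with differences of 2.29, 1.80 and 0.59, in a different order from Asns, which was highest in the DKO. In DKO liver Vegfa (0.93) and Wars (0.66) lay further above wild type than Fgf21 did. Vegfa gave 9.27, 9.78, 9.59 and 10.20 in wild-type liver, the liver labelled Dnmt2-/-, Nsun2-/- and DKO, and so was also highest in the DKO. Ahcy, which cleaves S-adenosylhomocysteine, was lower in all 3 knockout livers (−1.26, −0.90 and −0.69).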

How the data were processed

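Total RNA (200 ng per sample, per the labels' protocols) was hybridized to bead arrays, 1 array for each of the 8 groups taken from the labels. Raw values came from a deposited table of linear intensity per probe, with a detection p-value beside each one per the file headers. The authors' processed intensity values are in another deposited table; the sources used here do not give their normalization. Array medians of that table, for wild type, Dnmt2-/-, Nsun2-/- and DKO, were 104.0, 104.0, 104.2 and 103.7 (MEFs) and 107.9, 107.2, 107.8 and 107.9 (livers). Its rank correlation with the other table was at least 0.999 on every array, it was linear with no centring, and the way its medians were made similar is unknown. It served as an alternative.

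Background was removed by normexp in limma 3.58.1 (R 4.3.3), with the detection p-values as its guide and 16 as the offset, followed by log2 transformation and quantile normalization across the 8 arrays. Gene symbols came from the platform annotation (1 symbol for 23898 of 25608 probes, several for 0, none for 1710). The probe with the highest mean signal stood for its gene, and 11 members had more than 1 probe. Each knockout array was set against wild type of the same sample type, using genes detected on 1 or both of the 2. An undetected value was replaced by the higher of itself and the lowest detected signal, which gives a bound. Tests used limma with Benjamini-Hochberg adjustment over the 10491 genes detected on at least 2 arrays; 3 members with a probe (Slc7a1, Psph and Pck2) did not reach that. The fits were also run on simulated data with independent noise in each value. Those data held no deviation shared by a whole array, so they cannot show how the fits behave under one.

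The members and the neighbouring gene lists were chosen with earlier results of these data known. All 37 members were accounted for. Values on every array were given for members at least 2-fold from wild type in any comparison (as a range where detected in no liver) and for Atf4, Ddit3, Asns and Trib3, others being given by range or beside them, and up to 3 genes of each neighbouring list were named by the size of their difference. The number of arrays limits the precision. Alternatives were no background correction, an offset of 50, scaling to the same median, quantile normalization within each sample type, the authors' values, the mean over a gene's probes, no detection filter, an intensity trend and leaving out each array.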

Additional observations from a re-analysis of the deposited data

Results flagged for a closer look

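For 4 members all 3 knockout MEFs lay below wild type and all 3 knockout livers above it. The mean log2 difference of the 3 livers minus that of the 3 MEFs was 2.98 for Asns (MEFs −1.16, liver 1.82), 1.36 for Atf5 (−1.15 and 0.218), 1.03 for Atf4 (−0.355 and 0.672) and 0.946 for Slc1a4 (−0.833 and 0.113). These mean differences were not tested. The limma fit gave no adjusted p under 0.05 for a difference of either effect between liver and MEFs. Of the 25 members compared in all 6 pairs, these 4 are 16%, against 7.25% of 7230 genes. The 3 MEF comparisons share 1 wild-type array, and so do the 3 liver comparisons. For Atf5 the DKO liver lay 0.01 above wild type, and between −0.07 and 0.01 under the other settings, so its direction there is not settled.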

How the results depend on the processing

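The members' medians kept their sign under all 7 alternatives tried for them: −0.61 to −0.41 in Dnmt2-/-, −0.69 to −0.40 in Nsun2-/- and −0.63 to −0.53 in DKO MEFs, and 0.01 to 0.14 in the livers. The number at least 2-fold lower in MEFs was 9 in Dnmt2-/- and fell to 5 without background correction and 5 on the authors' values; in Nsun2-/- it was also 9, and 5 and 5. Without the correction the background stays in the signal; for the authors' values the cause was not tested. Under both, 0.176% to 0.226% of all genes were 2-fold lower in these lines. Aldh1l2, Bcat1, Chac1 and Slc7a3 passed 2-fold in both lines under both settings. In DKO MEFs the count was 6 to 9. No genotype effect was called for a member under any alternative, including each array left out (0 in every case). With arrays scaled to the same median, 3 members in place of 5 were higher in liver than in MEFs; the number higher in MEFs was 20 to 25. Quantile normalization within each sample type, chosen for this comparison after seeing the data, does not put MEFs and liver on one scale; it gave 27 and 3 members, and 6358 and 1663 of all genes. Of 616 values of single genes recomputed, 610 kept their sign, and of 210 at 2-fold or more, 174 still were. Part of this was fixed in advance. The mean over probes cannot change a gene with 1 probe, and dropping the detection filter cannot change a pair detected on both arrays. No paired analysis was possible because each group has 1 array and the labels give all 8 the same replicate number. Signals near background, as for Trib3, Cebpg, Stc2 and the liver values of Bcat1 and Mthfd2, limit what can be read from them.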
